A study of Mus musculus with 4 samples.

Results

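The genes described here make cholesterol and fatty acids or control that synthesis. A list of 32 gene symbols defined them, and every probe set that the platform annotation pairs with 1 of those symbols alone was taken. This gave 27 genes, measured by 48 probe sets, of 17097 genes in all. Srebf1, Acat2, Pmvk, Scd2 and Abca1 were not analysed here. Each gene is given by its brightest probe set, the one with the highest mean over the arrays, and 15 of the 27 genes had further probe sets.

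The mouse embryonic stem cells were of the J1 line, kept without feeder cells in fetal calf serum and LIF, and 4 RNA samples were measured on 1 Affymetrix expression array each. The conditions were Tet1/Tet2 KD + PRDM14 (knockdown and PRDM14 overexpression), Tet1/Tet2 KD (knockdown alone), Scramble + PRDM14 (PRDM14 overexpression alone), and Scramble, whose source label reads wild type. The RNA protocol names control and shTet1/Tet2 cells of iP14, without and with Dox, and does not say which label carries Dox. If Dox was what induced PRDM14, a PR-domain regulator of pluripotent and germ cells, the drug and PRDM14 cannot be told apart. The knockdown targeted Tet1 and Tet2, dioxygenases that oxidise 5-methylcytosine, and the series asked what they do in gene regulation by PRDM14. With 1 array per condition there was no spread within a condition, and the number of arrays limits every value. Whether iP14 or the knockdown cells are 1 clone is not given in the sources used here.

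Cells make cholesterol from acetyl-CoA through mevalonate, isoprenoid units, squalene and a series of sterol ring intermediates. When sterols in the endoplasmic reticulum run low, SCAP escorts the SREBP transcription factors to the Golgi, where they are cut and released to switch on the genes of the pathway, while INSIG proteins hold SCAP back when sterols are plentiful. Fatty acid synthesis shares the acetyl-CoA supply and is driven mainly by SREBP-1, the product of Srebf1, and cholesterol synthesis mainly by SREBP-2, the product of Srebf2. Pluripotent cells divide fast and need both lipids for new membranes.

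The promoters of the genes with the largest differences are shown because SREBPs act on such sequences together with NF-Y, a factor that binds CCAAT boxes. The letters searched were CCAAT on both strands, so a match reads CCAAT or ATTGG, and matches are in capitals. Each stretch is the 250 bases before the RefSeq gene start, 5′ to 3′ on the gene's strand, from RefSeq on build GRCm38.p6. Idi1 lies at chr13:8885356-8885605 on the plus strand, Msmo1 at chr8:64733579-64733828 on the minus strand, Cyp51 at chr5:4104698-4104947 on the minus strand and Insig1 at chr5:28071162-28071411 on the plus strand. Elovl6, at chr3:129532136-129532385 on the plus strand, is shown for contrast as a fatty acid gene with no match.
Idi1: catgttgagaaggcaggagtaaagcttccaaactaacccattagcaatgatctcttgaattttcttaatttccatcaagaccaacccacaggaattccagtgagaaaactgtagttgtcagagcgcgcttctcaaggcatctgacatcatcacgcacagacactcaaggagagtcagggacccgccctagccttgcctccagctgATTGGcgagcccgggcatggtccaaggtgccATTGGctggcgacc
Msmo1: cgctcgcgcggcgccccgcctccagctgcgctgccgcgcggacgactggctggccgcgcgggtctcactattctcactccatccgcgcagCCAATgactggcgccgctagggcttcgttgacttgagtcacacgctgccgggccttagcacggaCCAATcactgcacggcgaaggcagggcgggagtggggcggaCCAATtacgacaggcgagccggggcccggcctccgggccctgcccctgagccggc
Cyp51: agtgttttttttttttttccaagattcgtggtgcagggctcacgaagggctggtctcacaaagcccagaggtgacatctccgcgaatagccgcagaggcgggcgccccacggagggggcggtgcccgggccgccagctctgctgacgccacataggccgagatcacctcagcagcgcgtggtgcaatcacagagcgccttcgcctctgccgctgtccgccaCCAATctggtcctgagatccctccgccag
Insig1: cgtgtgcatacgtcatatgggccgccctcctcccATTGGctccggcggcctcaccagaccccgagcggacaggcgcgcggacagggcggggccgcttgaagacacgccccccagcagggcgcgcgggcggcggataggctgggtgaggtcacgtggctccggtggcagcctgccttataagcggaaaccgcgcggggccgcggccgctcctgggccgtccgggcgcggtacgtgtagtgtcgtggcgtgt
Elovl6: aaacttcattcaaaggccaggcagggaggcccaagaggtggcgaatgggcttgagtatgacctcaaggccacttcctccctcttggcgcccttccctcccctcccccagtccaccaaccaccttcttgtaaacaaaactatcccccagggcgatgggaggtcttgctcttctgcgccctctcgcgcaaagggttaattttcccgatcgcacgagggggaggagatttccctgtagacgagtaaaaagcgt

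Idi1 held 2 matches, beginning at −45 and −14 from the gene start, Msmo1 held 3, at −160, −96 and −55, Cyp51 held 1 at −29 and Insig1 held 1 at −216. A promoter window of 300 bases, with 50 after the start, was found for 21 of the 27 genes, some with several windows. A CCAAT match lay in a window of 13 of 13 enzymes of the mevalonate and sterol ring steps that have one, against 41.06% of all 27025 genes with a window and 43.05% of those above the expression filter defined below. Of 5 fatty acid genes 2, Acly and Fasn, had one. Over all 21 genes 17 had one. Among the regulators Insig1 and Srebf2 had a match, and Scap had a window without one. GC boxes (GGGCGG, both strands) were also found in 13 of the 13 sterol enzymes, against 66.9% of the genes above the filter, and in 2 of the 5 fatty acid genes. The sterol regulatory element in the form TCACNCCAC was found in Hmgcs1 alone of the 21, against 1.44% of all genes and 1.54% of those above the filter, and the E-box CACGTG in 5 of 21, namely Dhcr7, Hsd17b7, Insig1, Sc5d and Scap, against 8.09% of all genes and 11.99% of those above the filter. By single windows, the shares over all 32851 were 37.41% for CCAAT, 35.66% for the GC box, 1.24% for the sterol element and 7.15% for the E-box. None of these motifs contains another. A match describes letters in the window and is not a measured binding site.

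All signals are log2 values as deposited, and an expression filter was set at 5.40, the midpoint (median) of the signals of every probe set paired with 1 gene. A gene counts in a comparison when the brighter of its 2 arrays reaches it. Of the 27 genes 25 were above it on every array, so no gene passed only through a condition in which it was high. Hmgcs1 (HMG-CoA synthase) read between 3.26 and 3.32 and Lss (lanosterol synthase) between 4.27 and 4.68, below the filter on all 4 arrays. They enter no count of differences. At these low signals Lss and Hmgcs1 differed by −0.37 and 0.06 with PRDM14 in scramble cells. For the knockdown without PRDM14 they differed by −0.41 and 0.04. Over all genes 10519, or 61.5%, reached the filter on at least 1 array.

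The Scramble array stood furthest from the others, with a root mean square distance of 0.281 from the mean of the other 3, against 0.258 for Scramble + PRDM14, 0.205 for Tet1/Tet2 KD + PRDM14 and 0.199 for Tet1/Tet2 KD. Its Actb control probe sets read 11.8 to 12.26, against 12.05 to 12.52 on the other arrays, and the 3′ minus 5′ signal of Actb was 0.46 there and 0.35 to 0.40 elsewhere. Of the targeted genes, Tet2 read 8.15 on Tet1/Tet2 KD + PRDM14 and 9.33 on Scramble + PRDM14, and 7.50 on Tet1/Tet2 KD and 8.46 on Scramble. The knockdown differences were −1.18 with PRDM14 and −0.96 without it. On the second Tet2 probe set, also above the filter, they were smaller, at −0.58 and −0.56. Prdm14 read 4.61, 4.35, 4.83 and 4.53 on Tet1/Tet2 KD + PRDM14, Tet1/Tet2 KD, Scramble + PRDM14 and Scramble, below the filter, so its probe set did not check the PRDM14 labels. Tet1 was not analysed here. All 9 measured stem cell markers were above the filter, between 7.82 and 12.79, while 1 of 7 fibroblast and feeder markers was, Dcn, with no value over 5.60. Primitive endoderm (2 of 7), trophectoderm (2 of 6), mesoderm (3 of 4) and neuroectoderm markers (2 of 5) read at most 7.12. The summed neuroectoderm signal was 7.65, 7.77, 8.23 and 7.56 on the log2 scale in the order just given for Prdm14, lowest on Scramble and highest on Scramble + PRDM14, and its part in the results was not tested. The summed stem cell markers read 14.22, 14.26, 14.39 and 14.33 in that order, and the summed mesoderm markers 7.88 to 8.04. In bulk RNA, fewer cells of a type and less RNA per cell cannot be told apart.

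With PRDM14 in scramble cells, the 14 enzymes of the mevalonate and sterol ring steps on the list that were above the filter read higher, while fatty acid genes were split. Their differences ran from 0.02 to 1.43 with a median of 0.38, whereas 50.4% of 10366 genes tested were above 0, with a median of 0.002. Of their 21 probe sets above the filter 20 were above 0, the exception being the second of Sc5d. Of 4 further sterol and isoprenoid genes above the filter but outside the list, 1 was above 0, with a median of −0.14. Lbr, another sterol reductase, was at −0.15. Acat1, whose product works in mitochondria, was at −0.73, and the related gene Acat3, on no list here, was at 0.40. Idi1 was at least 2-fold higher, the 1 gene of 25 past 2-fold, where 2.09% of all genes were past it in either direction. At 1.5-fold, Idi1, Msmo1, Cyp51, Insig1 and Stard4 were higher (5 of 25, against 4.28% of all genes) and Elovl6 was lower (1 of 25, against 3.91%). With 1 array on each side these are rules of size and not tests. The spread of this difference between probe sets of the same gene, a technical yardstick, had a pooled SD of 0.22 over 3322 genes.

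Idi1 encodes isopentenyl diphosphate isomerase, which interconverts the isoprenoid building blocks. Its signal was 9.14 on Scramble + PRDM14 and 7.71 on Scramble, a 2.70-fold difference that ranked 41st of the 10366 genes, and 9.10 on Tet1/Tet2 KD + PRDM14 and 8.76 on Tet1/Tet2 KD. The second Idi1 probe set gave 8.90 and 7.35, and 8.83 and 8.49, on the same arrays. On both probe sets Scramble was the low array, and the other 3 lay well above it. Among its neighbours in the mevalonate steps, Fdps, which joins isoprenoid units to farnesyl diphosphate, read 8.88 on Scramble + PRDM14 and 8.45 on Scramble, and 8.59 on Tet1/Tet2 KD + PRDM14 and 8.79 on Tet1/Tet2 KD. Mvd, the mevalonate diphosphate decarboxylase, differed by 0.34 in scramble cells and by −0.21 in knockdown cells with PRDM14. Mvk, mevalonate kinase, differed by 0.12 and 0.20, less than Idi1 in both.

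Cyp51, the lanosterol demethylase, and Msmo1, the methylsterol monooxygenase, remove methyl groups from the sterol ring. Msmo1 read 8.29 on Scramble + PRDM14 and 7.34 on Scramble, and 7.96 on Tet1/Tet2 KD + PRDM14 and 7.76 on Tet1/Tet2 KD. Its other probe set lay between 3.39 and 3.47, below the filter, and the difference in scramble cells was 0.95 on the brightest probe set and 0.49 with the mean of both. Cyp51 read 6.83 on Scramble + PRDM14 and 6.04 on Scramble, a difference of 0.79, and a second probe set gave 0.81. On the knockdown arrays Cyp51 read 6.66 with PRDM14 and 6.32 without, a difference of 0.34, and 0.14 on the second probe set. Scramble was again the lowest of the 4 arrays for both genes and Scramble + PRDM14 the highest.

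In scramble cells the other ring enzymes differed less. Squalene epoxidase, Sqle, differed by 0.45 with PRDM14 in scramble cells and 0.33 in knockdown cells, and the sterol reductase Tm7sf2 by 0.42 and −0.17. The sterol isomerase Ebp was at 0.39, the dehydrocholesterol reductase Dhcr7 at 0.36, squalene synthase Fdft1 at 0.28 and the sterol dehydrogenase Nsdhl at 0.22 in scramble cells. In knockdown cells these 4 lay between −0.09 and 0.08. The keto-sterol reductase Hsd17b7 differed by 0.04 in scramble and 0.05 in knockdown cells, within the spread between probe sets. Sc5d, the lathosterol desaturase, differed by 0.02 in scramble cells and 0.41 in knockdown cells on its brightest probe set, and by −0.06 and −0.09 on its second.

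**Figure D1:**
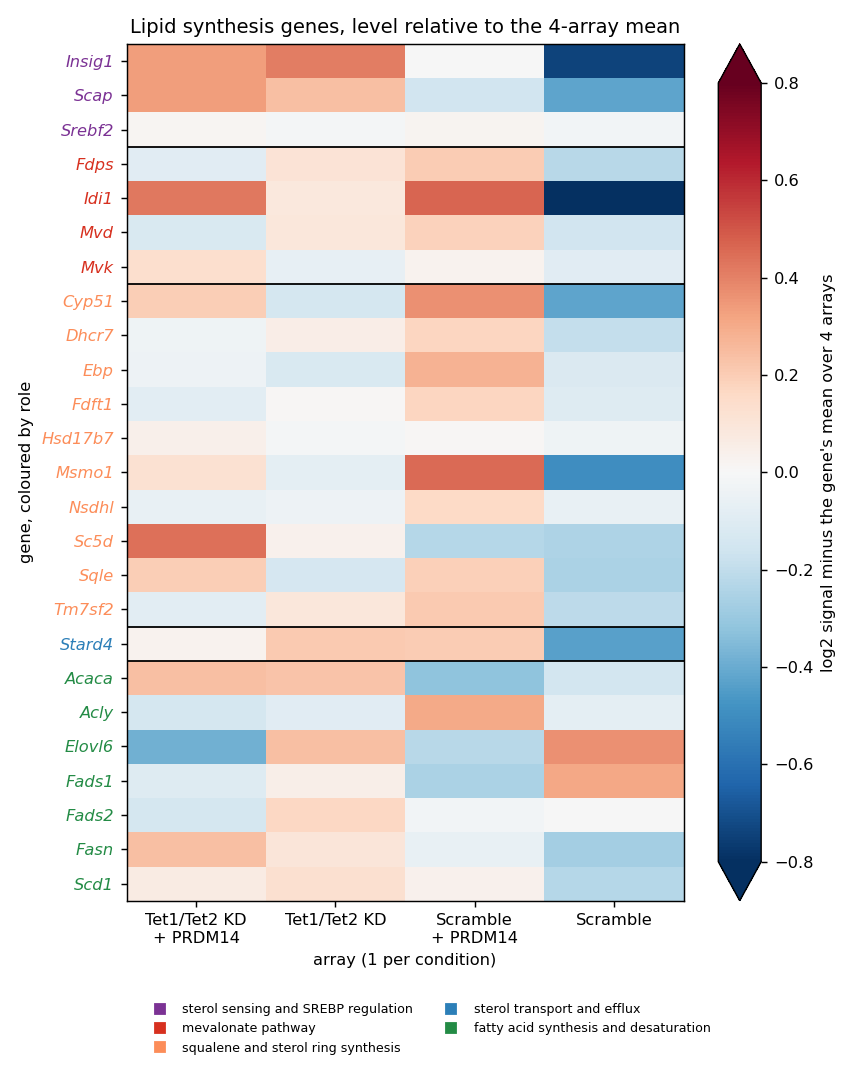
Log2 signal of the 25 genes above the expression filter minus each gene's mean over the 4 arrays (colour), by array (columns) and gene (rows, grouped and coloured by role). Most rows of the mevalonate and sterol ring enzymes are blue on the Scramble array, the lowest of the 4 for 12 of 14, and red on Scramble + PRDM14, the highest for 10 of 14.

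Insig1, Scap and Srebf2 regulate the pathway. Insig1, whose product retains SCAP and which is itself a target of SREBP, read 6.81 on Scramble + PRDM14 and 6.07 on Scramble, and 7.15 on Tet1/Tet2 KD + PRDM14 and 7.23 on Tet1/Tet2 KD. Scramble was the low array and the knockdown arrays were the high ones. Scap, the escort protein, read 6.62 on Scramble + PRDM14 and 6.35 on Scramble, and 7.11 on Tet1/Tet2 KD + PRDM14 and 7.01 on Tet1/Tet2 KD, so both knockdown arrays were above both scramble arrays. Srebf2 read between 7.14 and 7.19 on all 4 arrays, and its second probe set between 5.93 and 6.27. The message of the transcription factor differed by at most 0.05 in any comparison on the brightest probe set. On the second it differed by 0.08 with PRDM14 in scramble cells and by at most 0.255, for the knockdown with PRDM14. Whether the message has a part in the Idi1 difference of 1.43 was not tested.

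Stard4, a START-domain protein that carries cholesterol between membranes, read 7.03 on Scramble + PRDM14 and 6.39 on Scramble, and 6.85 on Tet1/Tet2 KD + PRDM14 and 7.04 on Tet1/Tet2 KD. Scramble was low and the other 3 arrays lay within 0.19 of each other. Its second probe set above the filter gave 0.54 with PRDM14 in scramble cells and 0.20 in knockdown cells, and with probe sets averaged the scramble difference was 0.54, under 1.5-fold.

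Fatty acid genes did not share a direction with PRDM14. Of 7 above the filter 3 were above and 4 below 0 in scramble cells, with a median of −0.02, and 2 were above and 5 below 0 in knockdown cells, with a median of −0.07. Elovl6, the elongase that extends palmitate to stearate, read 8.51 on Scramble + PRDM14 and 9.09 on Scramble, and 8.34 on Tet1/Tet2 KD + PRDM14 and 8.96 on Tet1/Tet2 KD. Both PRDM14 arrays were below both arrays without it, and the differences of −0.59 and −0.62 come from pairs that share no array. The second Elovl6 probe set above the filter gave −0.41 and −0.52. Elovl6 was the 1 gene of 25 past 1.5-fold in both backgrounds, which 0.87% of all 10519 genes were in a common direction. With probe sets averaged per gene the values were −0.41 and −0.40, and with each array centred on its median −0.58 and −0.62, so the 1.5-fold call ended in both backgrounds under the first and in scramble cells under the second.

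Acly, the ATP citrate lyase that supplies acetyl-CoA to both pathways, read 10.48 on Scramble + PRDM14 and 10.09 on Scramble, and 10.03 on Tet1/Tet2 KD + PRDM14 and 10.08 on Tet1/Tet2 KD. Its other probe set gave 0.68 in scramble cells and −0.10 in knockdown cells, so Scramble + PRDM14 was the high array on both. The desaturase Fads1, which makes polyunsaturated fatty acids, differed by −0.56 in scramble cells, just under 1.5-fold, and by −0.15 in knockdown cells, while its second probe set gave 0.08 and −0.07. Its partner Fads2 differed by −0.02 and −0.30, and by −0.39 and −0.57 on its second probe set above the filter. Fatty acid synthase, Fasn, differed by 0.22 and 0.14, the stearoyl-CoA desaturase Scd1 by 0.26 and −0.07 and acetyl-CoA carboxylase, Acaca, by −0.17 and 0.01.

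**Figure D2:**
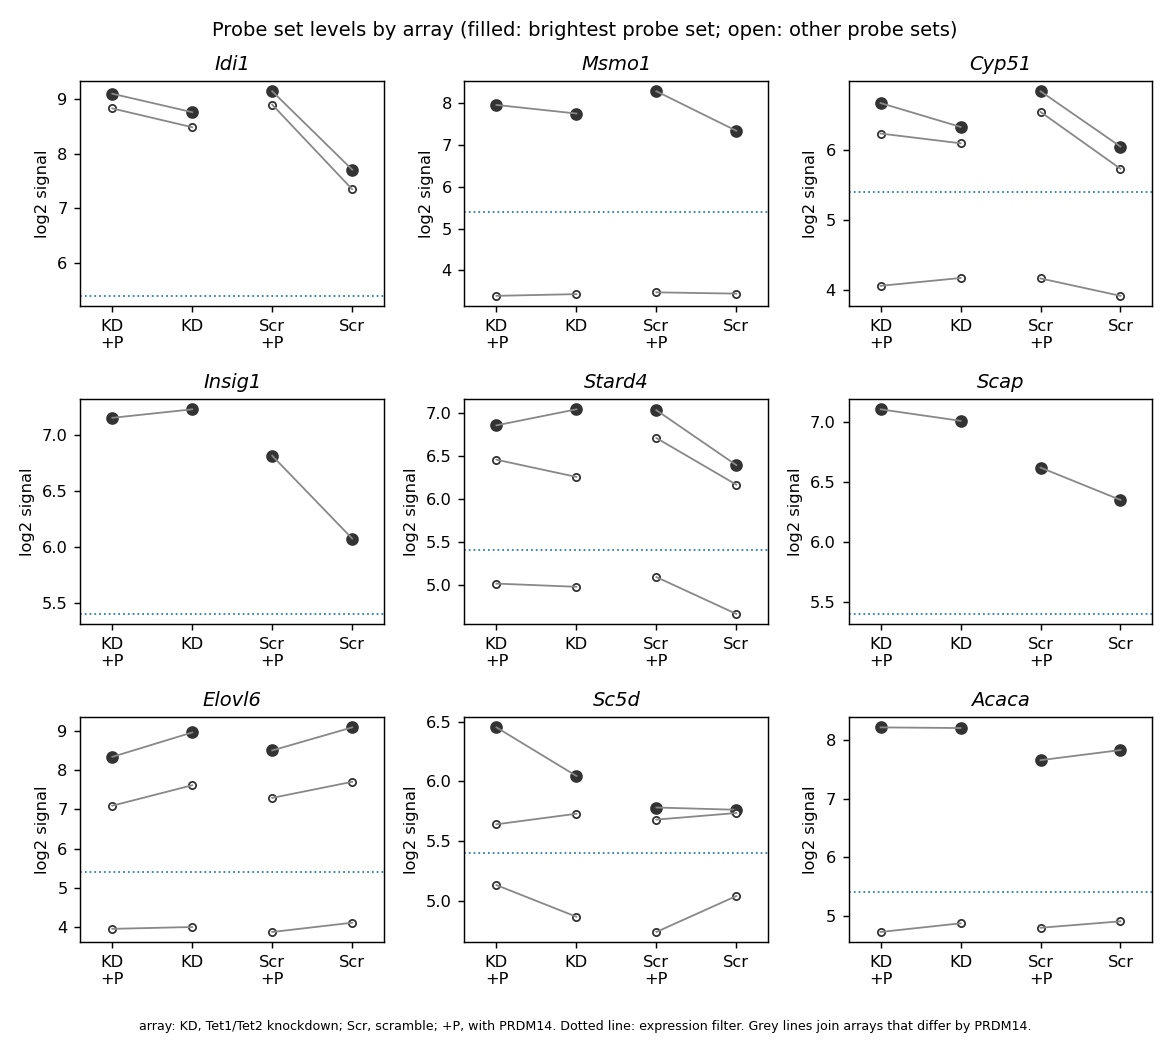
Log2 signal (vertical axis) of every probe set of 9 genes on the 4 arrays (horizontal axis), with the brightest probe set filled, the others open, the filter of 5.40 dotted, and grey lines joining arrays that differ by PRDM14. On the brightest probe set Scramble is the low array for Idi1, Msmo1, Cyp51, Insig1 and Stard4, while the upper Elovl6 probe sets are lower with PRDM14 in both backgrounds and Scap and the brightest probe set of Acaca are higher on both knockdown arrays.

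With PRDM14 in knockdown cells, the cholesterol enzymes were not displaced together. Of the 14 mevalonate and sterol ring enzymes 8 were above and 6 below 0, with a median of 0.07, against −0.001 over 10311 genes. Of all 25 genes 0 were past 2-fold, where 0.63% of all genes were. Elovl6 was the 1 past 1.5-fold lower (against 1.35% of all genes), and 0 were past 1.5-fold higher (against 1.46%). Sc5d (0.41), Cyp51 (0.34), Idi1 (0.34) and Sqle (0.33) had the largest positive values. In this comparison the pooled SD between probe sets was 0.15. Over the 2 PRDM14 comparisons, which share no array, 8 of the 14 cholesterol enzymes were higher in both, against 27.65% of all genes. Since all 14 were above 0 in scramble cells, these are the 8 above 0 in knockdown cells (57.1%, against 49.5% of all genes). For the same reason none of the 14 could be lower in both. Of all 25 genes 14 had a common direction, 56%, against 55.34% of all genes.

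The difference between the PRDM14 differences, knockdown minus scramble, was below 0 for 20 of 25 genes, with a median of −0.31, and for 11 of the 14 cholesterol enzymes, with a median of −0.41. Over all genes 50.89% were below 0 and the median was near 0. Idi1 was past 2-fold at −1.10 (1 of 25, against 2.27% of genes in either direction). Stard4 (−0.82), Insig1 (−0.82), Msmo1 (−0.74), Fdps (−0.63) and Tm7sf2 (−0.60) were past 1.5-fold, which with Idi1 made 6 of 25 lower, against 4.72% of all genes. At 1.5-fold higher there were 0 of 25, against 4.37%, and the largest positive values were those of Fads1 (0.41) and Sc5d (0.39). This measure contains all 4 arrays, has no error estimate and was not tested, and the Scramble array enters it as the baseline of the scramble difference.

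**Figure D3:**
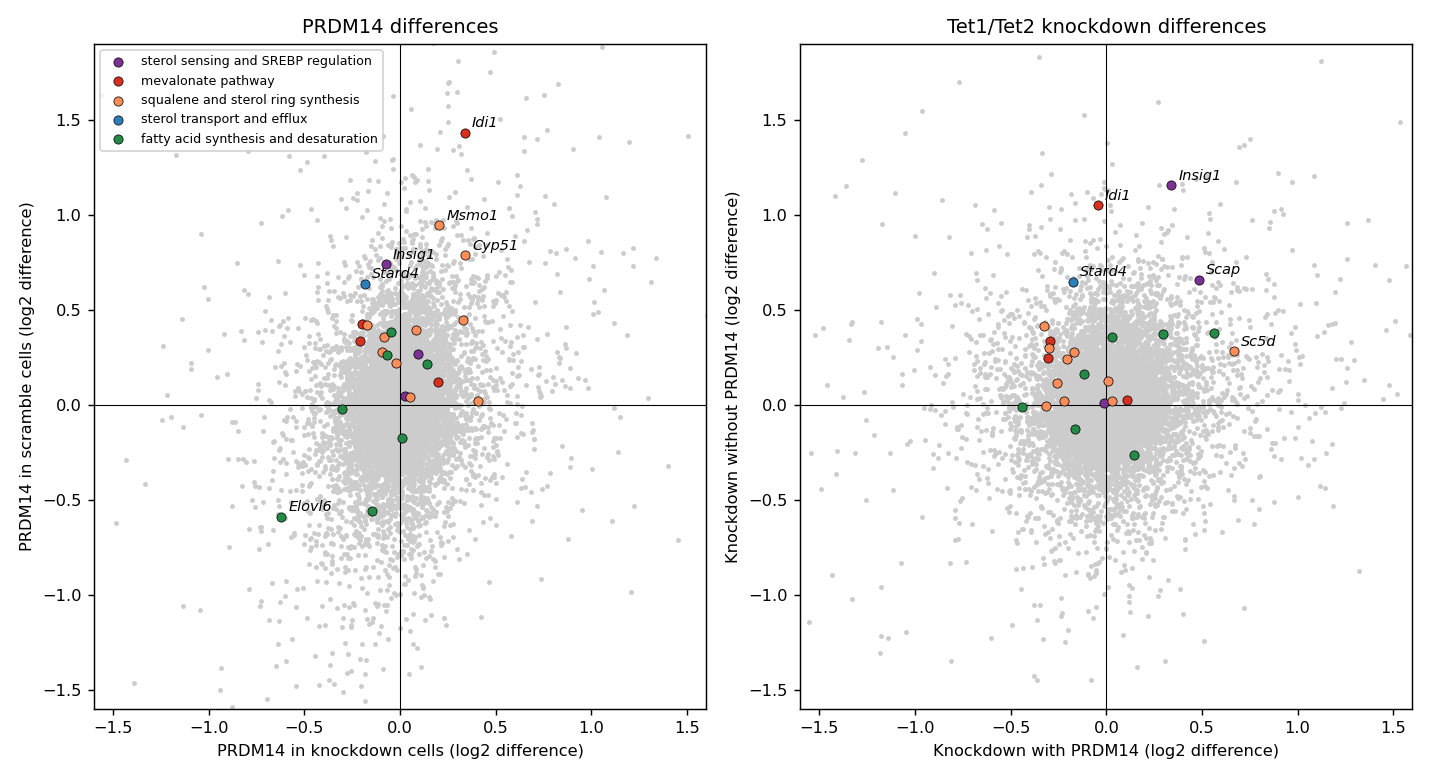
Log2 differences of the 25 genes (coloured by role) and of all genes above the filter (grey; those beyond the axes are not drawn). Left, PRDM14 in knockdown cells (horizontal) and in scramble cells (vertical); right, the knockdown with PRDM14 (horizontal) and without it (vertical). Idi1 lies at 0.34 and 1.43 on the left and Elovl6 at −0.62 and −0.59, and on the right Scap lies at 0.49 and 0.66.

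Without PRDM14, the Tet1/Tet2 KD array also read higher than Scramble for most of these genes. Since this comparison and PRDM14 in scramble cells both subtract the Scramble array, no overlap between them is given. Of the 14 cholesterol enzymes 13 were above 0, with a median of 0.24, against 51.6% of 10351 genes and a median of 0.01. Insig1 at 1.16 and Idi1 at 1.05 were past 2-fold higher (2 of 25, where 1.06% of all genes were past 2-fold in either direction). Scap at 0.66 and Stard4 at 0.65 joined them past 1.5-fold higher, making 4 of 25, against 2.93% of all genes, and 0 were past 1.5-fold lower, against 2.16%. The second probe set of Idi1 gave 1.13, and the second probe set of Stard4 above the filter gave 0.09. The pooled SD between probe sets was 0.21. Msmo1 differed by 0.41, Fdps by 0.34, Tm7sf2 by 0.30 and Cyp51 by 0.28, and Ebp by −0.01.

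With PRDM14 present, the same knockdown contrast gave mostly negative values for the cholesterol enzymes. It subtracts the Scramble + PRDM14 array, the highest of the 4 for 10 of the 14. That array also gives the positive PRDM14 differences in scramble cells, so these 2 comparisons are not separate findings. Of 14, 4 were above and 10 below 0, from −0.33 for Msmo1 to 0.67 for Sc5d, with a median of −0.21, against 0.003 over 10322 genes. Of all 25 genes 0 were past 2-fold, against 1.1%, and Sc5d was the 1 past 1.5-fold higher, against 2.39%, while 0 were past 1.5-fold lower, against 1.95%. Sc5d read 6.45 on Tet1/Tet2 KD + PRDM14 and 5.78 on Scramble + PRDM14, and 6.05 on Tet1/Tet2 KD and 5.76 on Scramble, but its second probe set gave −0.04 and −0.01 in the same pairs. The pooled SD between probe sets was 0.16. For the pair of comparisons that subtract no common array, 5 of 14 cholesterol enzymes had a common direction, 35.71%, against 53.15% of all genes.

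On the knockdown arrays 9 of 25 genes, 36%, were higher in both pairs, against 27.84% of all genes. They were Insig1, Scap, Mvk, Hsd17b7, Sc5d, Sqle, Acaca, Fasn and Scd1, of which Mvk, Hsd17b7 and Sqle differed by at most 0.12 in either pair. Scap differed by 0.49 with PRDM14 and 0.66 without it. Acaca, which makes malonyl-CoA for fatty acid synthesis, read 8.22 on Tet1/Tet2 KD + PRDM14 and 7.66 on Scramble + PRDM14, and 8.21 on Tet1/Tet2 KD and 7.83 on Scramble. Its other probe set, between 4.72 and 4.90 and below the filter, gave −0.07 and −0.03. Fasn differed by 0.30 and 0.37 and Insig1 by 0.34 and 1.16. Of the 7 fatty acid genes 4 were above 0 with PRDM14 and 4 without it, with medians of 0.03 and 0.17. With PRDM14 Acly was the lowest of the 7 at −0.44, and its other probe set gave −0.79. Without PRDM14 Acly was at −0.01, and Elovl6 (−0.129) and Fads1 (−0.265) were lower.

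**Figure D4:**
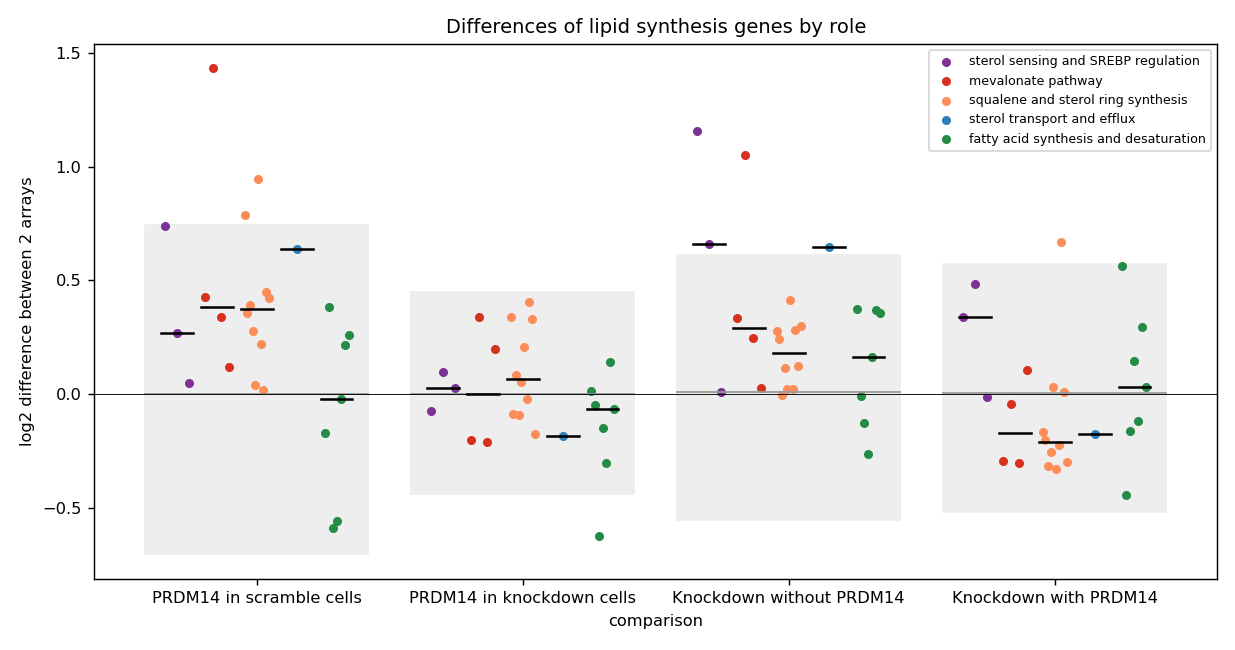
Log2 difference between 2 arrays (vertical axis) for each of the 25 genes (points, coloured by role) in the 4 comparisons (horizontal axis), with the median of each role as a black bar and the central 95% of all genes tested as a grey band around their median. The ring enzymes lie at or above 0 in scramble cells with PRDM14, with a median of 0.38, and mostly below 0 for the knockdown with PRDM14, with a median of −0.21.

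Counted over arrays, Scramble was the lowest of the 4 for 18 of 25 genes, 72%, and for 12 of 14 cholesterol enzymes, 85.7%, against 31.1% of all genes. Scramble + PRDM14 was the highest for 12 of 25 genes and 10 of 14 cholesterol enzymes, 71.4%, against 25.9% of all genes. Both at once held for 8 of the 14, against 11.82% of all genes. The exceptions to the low Scramble array were Ebp and Nsdhl, both within 0.01 of it on their lowest array. Among the 7 fatty acid genes, Scramble was the lowest for 2 (Fasn and Scd1) and the highest for 2 (Elovl6 and Fads1).

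An additive fit, in which each level of a factor has 2 arrays if PRDM14 and knockdown effects add up, gave average differences with an error. None of 25 genes passed a 5% false discovery rate in limma with Benjamini-Hochberg adjustment over 10519 genes, nor did any of the 10519 (0%), and the smallest adjusted p was 0.782 for PRDM14 and 0.802 for the knockdown. At an unadjusted p under 0.05 there were 638 genes for PRDM14, 6.07%, of which 3 were Elovl6, Cyp51 and Sqle, and 604 for the knockdown, 5.74%, of which 4 were Scap, Acaca, Sc5d and Insig1. The average PRDM14 difference was −0.61 ± 0.12 (SE) for Elovl6, with adjusted p = 0.782 in limma, and 0.89 ± 0.33 for Idi1. The average knockdown difference was 0.57 ± 0.09 (SE) for Scap, with adjusted p = 0.802 in limma, and 0.47 ± 0.12 for Acaca. The residual of this fit is the dependence on the knockdown itself, with 1 degree of freedom per gene, so genes such as Idi1 have wide errors.

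Other genes of lipid metabolism, taken as lists and not by their values, are given first for PRDM14 in scramble cells and then for the other comparisons. Of 4 further sterol and isoprenoid genes above the filter 1 was above 0 with PRDM14 in scramble cells, with a median of −0.14, and Acat1, a thiolase that makes acetoacetyl-CoA in mitochondria, read 6.25 on Scramble + PRDM14 and 6.97 on Scramble, with a second probe set above the filter at −1.06. Nus1, a subunit of the enzyme that makes dolichol precursors, differed by 0.04, with 2 other probe sets above the filter at 0.27 and 0.42, and Ggps1, the geranylgeranyl diphosphate synthase, by −0.14, with a second probe set at 0.10. Of 7 genes of SREBP cleavage and sterol-regulated protein degradation 2 were above 0, with a median of −0.24, and the proteases that cut SREBP were at −0.69 (Mbtps2) and −0.50 (Mbtps1), with another probe set above the filter at −0.28 for Mbtps2 and 0.02 for Mbtps1. Faf2, which helps extract proteins from the endoplasmic reticulum, was at −0.33. With PRDM14 in knockdown cells 3 of the 4 sterol and isoprenoid genes were above 0, with a median of 0.09, and 2 of the 7 SREBP genes, with a median of −0.07. For the knockdown with PRDM14 they were 4 of 4, with a median of 0.11, and 6 of 7, with a median of 0.14. For the knockdown without PRDM14 they were 1 of 4, with a median of −0.11, and 3 of 7, with a median of −0.04.

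Of 8 genes of sterol uptake and transport 2 were above 0 with PRDM14 in scramble cells, with a median of −0.13, with the lipoprotein receptor Vldlr at −0.45, the lysosomal sterol carrier Npc2 at −0.15 and the receptor chaperone Lrpap1 at 0.33. The other probe sets of Lrpap1 gave 0.94 and 0.67 there, and in knockdown cells Npc2 was at −0.48. All 4 measured genes of the LXR list, LXR being a nuclear receptor that answers to oxysterols, were below 0, with a median of −0.30. The phospholipid remodelling enzyme Lpcat3 was at −0.91, the sterol exporter Abcg1 at −0.51 and the ubiquitin ligase Mylip at −0.09. In knockdown cells these 3 were at −0.21, −0.18 and −0.25. Of the 8 uptake genes 5 were above 0 with PRDM14 in knockdown cells, with a median of 0.02, 3 for the knockdown with PRDM14 (−0.07) and 2 without it (−0.14). Of the 4 LXR genes these counts were 1 (median −0.19), 4 (0.17) and 1 (−0.05).

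Of 18 further genes of fatty acid and glycerolipid synthesis 8 were above 0 with PRDM14 in scramble cells and 8 in knockdown cells, with medians of −0.05 and −0.03, and 12 were above 0 for the knockdown with PRDM14 and 11 without it, both with a median of 0.04. Acsl4, which activates arachidonate and other polyunsaturated fatty acids, read 7.95 on Scramble + PRDM14 and 7.15 on Scramble, and 8.17 on Tet1/Tet2 KD + PRDM14 and 7.01 on Tet1/Tet2 KD. Both PRDM14 arrays were above both arrays without it, and a second probe set above the filter gave 0.52 and 0.65. Its relative Acsl3 differed by −0.42 and −0.47 with PRDM14 in scramble and knockdown cells and by 0.52 and 0.57 for the knockdown with and without PRDM14, and its next probe set gave −0.35 and −0.52, and 0.68 and 0.85. Mid1ip1, which activates acetyl-CoA carboxylase, differed by 0.74 for the knockdown with PRDM14 and 0.25 without it.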

How the data were processed

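Total RNA was prepared with the Affymetrix IVT Express labelling chemistry, per the labels' protocols. The authors deposited log2 signals per probe set, already on a like distribution: the quartiles of the 4 arrays lay no more than 0.016 apart. Affymetrix Expression Console stands in the submitters' processing notes as the tool. Not given in the sources used here: the summary method, the background step and the build. Values between 2.78 and 13.2 are the basis for reading the scale as log2. Depth does not apply to arrays.

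Of 45141 probe sets 28898 had 1 gene symbol in the platform annotation, 551 several and 15588 none, beside 104 controls. Only the first kind was used, and Entrez identifiers matched the RefSeq table for 28689, with 0 symbols changed. A gene counted as tested in a comparison when the higher array reached the filter. Differences were computed in Python 3.11.15 with pandas 2.3.3. The additive fit used limma 3.58.1 under R 4.3.3 with an intensity trend, and its code was tested on simulated data. The threshold is 2-fold, with 1.5-fold as the lower one.

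Members, lists and tests were chosen with earlier results of these data known. The rule for named genes was: every measured member, array values for regulators and members past 1.5-fold, and up to 3 leading genes of each further list. Lbr, Acat3, Cpt1a and Cpt2 fell outside this rule. Array values of Fdps, Acly and Acaca, and members named for other reasons, were chosen after their values were seen. Alternatives were another fold threshold, no filter or a stricter one, values raised to the filter, probe sets averaged per gene, arrays centred on their median, and limma without the trend. Replicates were not available, so none was left out in turn.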

Additional observations from a re-analysis of the deposited data

Results flagged for a closer look

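In 4 cases a gene was past 1.5-fold in one background and of the opposite sign in the other. The share of all genes meeting this rule was not counted, so whether 4 is many or few cannot be told. A common direction in both backgrounds held for 55.34% of all genes with PRDM14 and 53.15% for the knockdown, so opposite signs were common. Those shares cover differences of any size and are not a background for the rule. The difference itself was not tested, since each background has 1 array per condition. With PRDM14, Insig1 was at −0.08 in knockdown cells and 0.74 in scramble cells, and Stard4 at −0.19 in knockdown cells and 0.64 in scramble cells. For the knockdown, Idi1 was at −0.05 with PRDM14 and 1.05 without it, and Stard4 at −0.18 with PRDM14 and 0.65 without it. The second Stard4 probe set above the filter gave 0.20 in knockdown cells and 0.54 in scramble cells for PRDM14, with no change of sign, and −0.25 with PRDM14 and 0.09 without it for the knockdown. In each case the larger value is counted from the Scramble array. The pooled SD between probe sets was 0.15 for PRDM14 in knockdown cells and 0.16 for the knockdown with PRDM14. The opposite values of Insig1 and Idi1 were smaller than these, and those of Stard4 on its brightest probe set were larger.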

How the results depend on the processing

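With a 1.5-fold threshold in place of 2-fold, the members counted were 6 for PRDM14 in scramble cells, 1 for PRDM14 in knockdown cells, 4 for the knockdown without PRDM14 and 1 for the knockdown with PRDM14, against 1, 0, 2 and 0 at 2-fold. These member counts are each out of 25. Over all genes the same change gave 849, 290, 527 and 448 genes, or 8.19%, 2.81%, 5.09% and 4.34%. At 2-fold there were 217, 65, 110 and 114, or 2.09%, 0.63%, 1.06% and 1.1%. Without a filter, with a filter 1 log2 unit higher, with raised values, with probe sets averaged per gene or with centred arrays, the member counts at 2-fold stayed within 1.5 times. The median member difference moved by less than the spread between probe sets under the same alternatives other than the higher filter, for which it was not computed. Limma passed 0 members under each alternative tried. For single genes the mean of all probe sets gave 0.49 for Msmo1 and −0.40 for Elovl6 with PRDM14, in scramble cells for Msmo1 and in knockdown cells for Elovl6, 0.35 for Stard4 in the knockdown without PRDM14 and 0.34 for Sc5d in the knockdown with PRDM14; this mean includes dim probe sets. No paired analysis was possible because each condition has 1 array and the labels carry no replicate numbers. The PRDM14 comparison in scramble cells and the knockdown comparison without PRDM14 cannot be made without the Scramble array.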

Other observations

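Fatty acid oxidation, the opposite of synthesis, was read from a list of 17 genes, of which 12 were above the filter. With PRDM14 in knockdown cells 11 of the 12 were below 0, against 5195 of 10311 genes. Their median was −0.22, against −0.001 over all genes. In scramble cells 5 were above and 7 below 0, with a median of −0.01. The carnitine carrier Slc25a20 read 7.12 on Tet1/Tet2 KD + PRDM14 and 7.91 on Tet1/Tet2 KD, and 7.80 on Scramble + PRDM14 and 7.22 on Scramble. Its second probe set gave −1.01 in knockdown cells and 0.53 in scramble cells. The acyl-CoA dehydrogenase Acadm differed by −0.47 and 0.33 and the enoyl-CoA isomerase Ech1 by −0.31 and 0.57 in the same 2 backgrounds. For the knockdown these 3 genes were at −0.68, −0.60 and −0.69 with PRDM14 and 0.69, 0.20 and 0.19 without it. They were the 3 genes of the 12 past 1.5-fold lower with PRDM14, against 1.95% of all genes. The whole list had 6 above and 6 below 0 for the knockdown with PRDM14, with a median of 0.002. Without PRDM14 it had 8 above 0, with a median of 0.19. The carnitine palmitoyltransferases, named after their values were seen, went the other way in scramble cells with PRDM14, at −0.54 for Cpt1a and −0.55 for Cpt2. The differences between the backgrounds were not tested.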
